A study of Homo sapiens with 8 samples.

Results

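The genes described here are the CYP1B1 gene and its regulatory axis around the aryl hydrocarbon receptor (AHR), in 8 RNA-seq libraries of 2 human colorectal cancer cell lines. They were chosen by name. The 8 genes are AHR, its partner ARNT, its repressor AHRR, the targets CYP1A1, CYP1B1, TIPARP and ALDH3A1, and the interleukin-1 decoy receptor IL1R2. All 8 were in the deposited tables of 16829 genes. Each of the 4 groups had 2 libraries. RKO-CYP1B1 is the RKO line labelled as overexpressing CYP1B1, set against RKO-Control. SW480-shCYP1B1 is the SW480 line with a short hairpin against CYP1B1, set against SW480-shNT with the control hairpin. Per the labels, cells of both lines grew in DMEM with serum and antibiotics and were given lentivirus. The promoter that drives the introduced gene is not described in the labels. The SW480 comparison has 1 hairpin, so effects off its target cannot be told apart from those on CYP1B1. The labels do not say whether the 2 libraries of a group are separate cultures. The p-values therefore rest on the spread between these libraries alone, which may be technical. With 2 libraries a side, groups of like level fail to overlap with a probability of 0.333. A lack of overlap below is thus a description and shows little by itself.

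AHR is a cytosolic receptor held by HSP90 and the co-chaperone p23 (PTGES3) until a ligand binds it. It then enters the nucleus, pairs with ARNT and binds dioxin response elements, whose core is GCGTG, near genes such as CYP1A1 and CYP1B1. AHRR competes for ARNT and for these elements, and TIPARP, an ADP-ribosyltransferase, acts on AHR itself. Both are also AHR targets and so part of the feedback on the receptor. CYP1A1 and CYP1B1 are P450 enzymes that oxidise polycyclic hydrocarbons and oestrogens, and CYP1A1 can also break down AHR ligands. In the intestine, AHR senses dietary and microbial ligands.

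Promoter windows are shown because CYP1A1, AHR and TIPARP moved together in RKO and AHRR moved in SW480. RefSeq, build GRCh38.p14, gave windows from 250 bases before to 50 bases after a transcription start for 6 of the 8 genes, 10 windows in all. CYP1B1 and ALDH3A1 had no entry. The 4 printed below hold the GCGTG core, in capitals, read on either strand, so that CACGC is the core on the opposite strand. The CYP1A1 window is chr15:74725479-74725778 on the minus strand, the AHR window chr7:17298402-17298701, the AHRR window chr5:321464-321763 and the TIPARP window chr3:156674340-156674639, the last 3 on the plus strand.
CYP1A1: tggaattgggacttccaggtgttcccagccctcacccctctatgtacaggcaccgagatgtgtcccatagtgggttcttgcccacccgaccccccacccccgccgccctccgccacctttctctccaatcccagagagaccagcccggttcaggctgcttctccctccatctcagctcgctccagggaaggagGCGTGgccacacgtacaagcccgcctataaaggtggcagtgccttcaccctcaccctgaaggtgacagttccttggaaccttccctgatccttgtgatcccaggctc
AHR: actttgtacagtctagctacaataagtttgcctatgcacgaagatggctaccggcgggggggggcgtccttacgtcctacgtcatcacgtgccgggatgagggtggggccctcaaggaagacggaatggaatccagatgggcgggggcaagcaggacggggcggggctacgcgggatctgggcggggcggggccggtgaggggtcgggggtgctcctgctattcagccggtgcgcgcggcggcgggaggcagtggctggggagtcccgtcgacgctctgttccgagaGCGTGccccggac
AHRR: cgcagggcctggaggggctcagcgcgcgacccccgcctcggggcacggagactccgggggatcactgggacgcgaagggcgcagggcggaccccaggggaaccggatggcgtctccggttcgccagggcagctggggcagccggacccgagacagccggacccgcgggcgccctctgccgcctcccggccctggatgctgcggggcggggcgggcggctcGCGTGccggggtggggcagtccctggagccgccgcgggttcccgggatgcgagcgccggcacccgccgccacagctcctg
TIPARP: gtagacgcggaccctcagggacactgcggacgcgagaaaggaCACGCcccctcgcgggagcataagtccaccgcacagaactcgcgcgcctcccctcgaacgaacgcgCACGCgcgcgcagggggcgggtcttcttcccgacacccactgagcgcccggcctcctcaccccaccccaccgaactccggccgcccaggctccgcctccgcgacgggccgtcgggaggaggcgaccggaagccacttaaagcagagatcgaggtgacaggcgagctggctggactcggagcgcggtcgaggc
The core began 57 bases before the start in CYP1A1 and 30 before it in AHRR, where it also matched the longer form TNGCGTG, which contains the core. In TIPARP it lay at 208 and 142 bases before the start, and in AHR at 37 bases after it. Of the 10 windows, 5 held a core, the fifth being a second AHRR window. The windows of ARNT and IL1R2 and the other two of TIPARP held none. Across all 35116 RefSeq windows of this length 36.5% held the core and 5.51% the longer form, and for windows of genes in the count table the shares were 45.1% and 6.43%. A match describes the letters and is not a binding site.

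Depth was even, at between 31550173 and 34921085 counted reads per library. Levels below are read counts relative to the library total in units of CPM, scaled by TMM (normalised CPM), which compare 1 gene across libraries, or the deposited FPKM, which is per length and compares genes. The RKO-CYP1B1 pair was less alike than the other pairs, with 33 genes above 10 CPM more than 2-fold apart, against 3 in RKO-Control, 1 in SW480-shCYP1B1 and 3 in SW480-shNT. The labels give colon tissue, but all libraries are cell lines. Of 8 epithelial and colonic markers, 4 reached 1 FPKM in each RKO library, where CDH1 was at most 0.0503 FPKM and KRT20 was listed at 0. In SW480, 6 reached it in SW480-shCYP1B1 and 7 in SW480-shNT, and EPCAM was 14.1 and 14.6 FPKM in SW480-shCYP1B1, against 84.0 and 84.7 FPKM in SW480-shNT. Among markers of other cell types, CD68 alone was high: it was between 393 and 461 FPKM in the RKO libraries, 12.7 and 13.8 FPKM in SW480-shCYP1B1, and 3.12 and 4.02 FPKM in SW480-shNT.

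CYP1B1 itself checks the labels. It had 15238 and 17360 reads in RKO-CYP1B1, against 22 and 24 reads in RKO-Control. In SW480-shCYP1B1 it had 12 and 10 reads, against 50 and 76 reads in SW480-shNT. The groups did not overlap in either line, and the order of normalised CPM was RKO-CYP1B1, SW480-shNT, RKO-Control, SW480-shCYP1B1, with no overlap between neighbours. CYP1B1 rose by 9.42 on the log2 scale (SE 0.18, edgeR quasi-likelihood adjusted p = 7.93e-11) in RKO and fell by 2.44 (SE 0.31, adjusted p = 6.43e-05) in SW480. In FPKM the overexpressed gene stood at 85.0 and 100.7, above 95.5% and 96.4% of the genes in its libraries. These FPKM imply a gene length of 5218 bases. The length of the introduced transcript was not known here, so this rank and the FPKM ratios below hold for that implied length only. In every other library CYP1B1 was at most 0.421 FPKM, above 17.0% to 29.9% of the genes, so that the hairpin was aimed at a gene of low level. The counts do not tell introduced from resident CYP1B1 transcripts. RMDN2 overlaps CYP1B1 on the opposite strand (GENCODE 29, GRCh38, chromosome 2, 38066973 to 38109902 for CYP1B1). RMDN2 had 35 and 43 reads in RKO-CYP1B1, against 27 and 27 in RKO-Control (adjusted p = 0.349), and 107 and 101 in SW480-shCYP1B1, against 140 and 149 in SW480-shNT (adjusted p = 0.285).

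**Figure D1:**
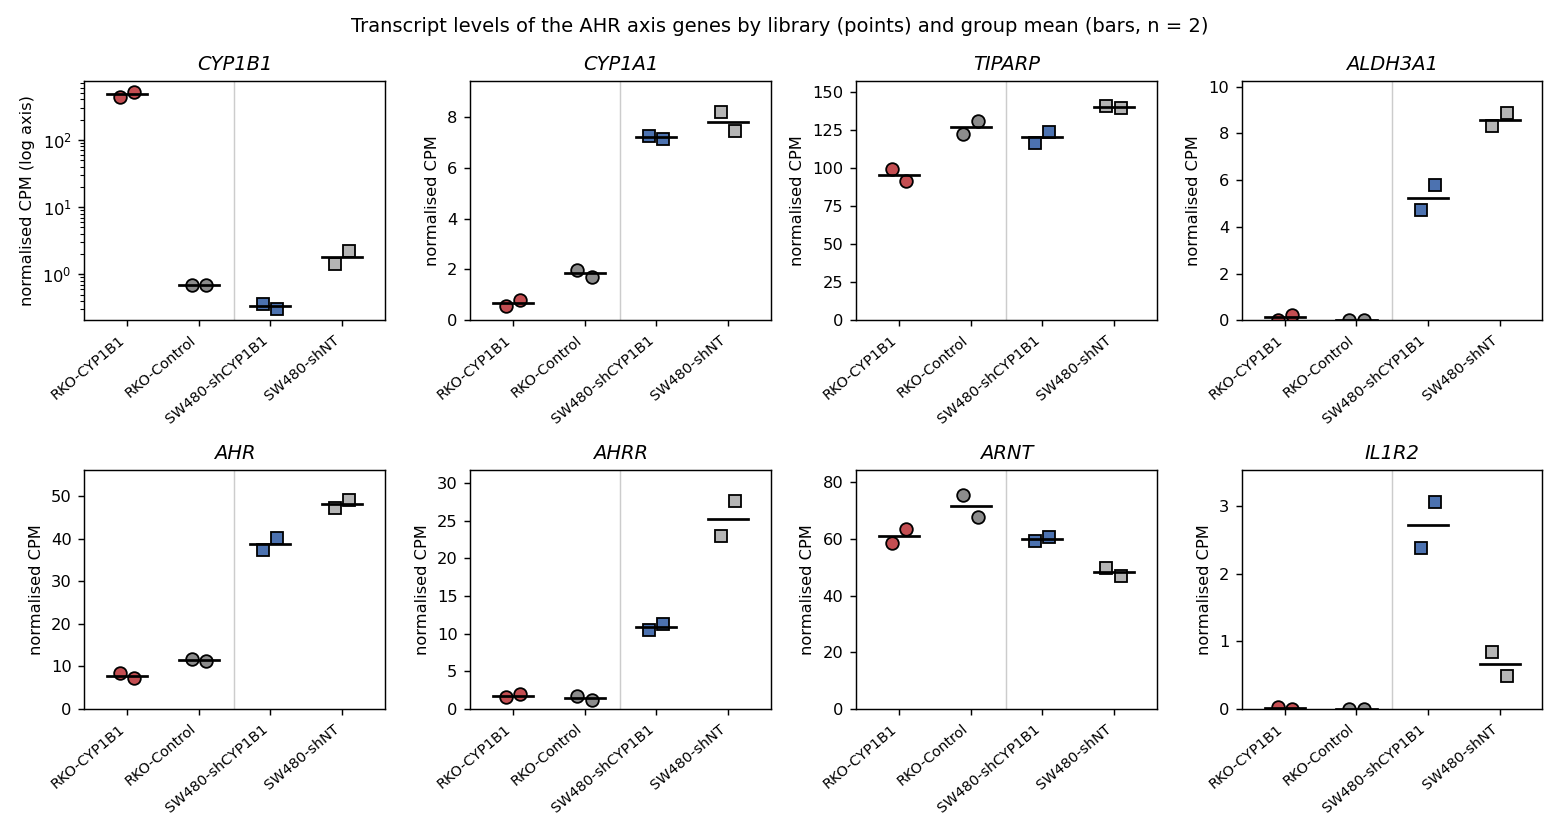
Normalised CPM of the 8 genes in each library (points) with group means (bars, n = 2). The axis of CYP1B1 is logarithmic and the others start at 0. In RKO, CYP1A1, AHR and TIPARP are lower in both RKO-CYP1B1 libraries than in both RKO-Control libraries, and AHRR in SW480 is lower in both SW480-shCYP1B1 libraries than in both SW480-shNT libraries.

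In RKO, the receptor and both its classical target CYP1A1 and its feedback enzyme TIPARP were lower with CYP1B1 overexpressed. Of the 6 genes with reads to compare there, 4 passed the test, CYP1B1 upwards and the other 3 downwards. CYP1B1 is the introduced gene, so its call reflects the manipulation. Across all 14157 genes tested, 27.6% passed, 13.8% upwards and 13.8% downwards. ALDH3A1 and IL1R2 were at or near 0 in RKO and are given without a fold. These are bulk libraries, so fewer cells with a transcript and less of it per cell cannot be told apart.

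AHR, the ligand-activated receptor, was at 8.52 and 7.14 normalised CPM in RKO-CYP1B1, against 11.8 and 11.2 in RKO-Control. Both overexpressing libraries lay below both controls. AHR fell by 0.55 on the log2 scale (SE 0.12, adjusted p = 0.00701). ARNT, the nuclear partner of AHR and of several related factors, was at 58.7 and 63.4 CPM in RKO-CYP1B1, against 75.4 and 67.8 CPM in RKO-Control. The groups did not overlap, but the log2 difference of -0.23 (SE 0.08, 95% interval -0.41 to -0.04) did not pass after adjustment (adjusted p = 0.0652). It passed with library totals in place of TMM (adjusted p = 0.0450) and without RKO-CYP1B1 replicate 2 (log2 fold change -0.28, adjusted p = 0.0124). AHRR, the repressor, had 54 and 65 reads in RKO-CYP1B1, against 55 and 40 in RKO-Control. The groups overlapped, and the log2 difference was 0.28 (SE 0.26, 95% interval -0.28 to 0.84, adjusted p = 0.463). AHRR overlaps PDCD6 on the same strand, and PDCD6 had at least 2404 reads in each RKO library. The level of PDCD6 was 0.26 higher on the log2 scale in RKO-CYP1B1 (SE 0.07, adjusted p = 0.0177). Whether reads of PDCD6 enter the AHRR count was not tested.

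Among the targets, CYP1A1 had the steepest fall. It had 20 and 27 reads in RKO-CYP1B1, against 64 and 58 in RKO-Control, or 0.573 and 0.807 against 1.99 and 1.69 normalised CPM. The groups did not overlap. CYP1A1 fell by 1.41 on the log2 scale (SE 0.30, 95% interval -2.07 to -0.76, adjusted p = 0.00512). TIPARP, which had far more reads, was at 99.4 and 91.6 CPM in RKO-CYP1B1, against 123 and 131 CPM in RKO-Control. All overexpressing values were below the controls, and TIPARP fell by 0.41 on the log2 scale (SE 0.07, adjusted p = 0.00221). The TIPARP call held in all 14 alternatives run, whereas those of CYP1A1 and AHR were lost when only the RKO libraries were used (adjusted p = 0.0689 for each). ALDH3A1, an aldehyde dehydrogenase induced through AHR, had 0 and 8 reads in RKO-CYP1B1 and none in RKO-Control. IL1R2, which binds interleukin-1 without signalling, had 1 and 0 reads in RKO-CYP1B1 and none in RKO-Control.

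In SW480, the hairpin group also had less AHR and TIPARP. Apart from CYP1B1, the change with the smallest adjusted p was a fall of the repressor AHRR, and the steepest was a rise of IL1R2. Of the 8 genes, 6 passed the test: CYP1B1, AHR, AHRR and TIPARP were lower, ARNT and IL1R2 higher. CYP1B1 is the target of the hairpin, so its call reflects the manipulation. Across all genes, 50.6% passed in this comparison, 25.3% upwards and 25.3% downwards, so calls were common in SW480. CYP1A1 and ALDH3A1 did not pass. Marker levels also moved between these groups. Of the 7 epithelial and colonic markers tested, 4 fell, namely EPCAM (log2 fold change -2.52, SE 0.09), VIL1 (-3.19, SE 0.31), KRT19 (-0.92, SE 0.13) and CDX2 (-0.86, SE 0.09), and 2 keratin genes rose, KRT8 (0.26, SE 0.07) and KRT18 (0.27, SE 0.06). Of the 6 markers of other cell types tested, 3 rose: CD68 (1.94, SE 0.11), CD3E (2.59, SE 0.84) and COL1A1 (1.00, SE 0.27). CD3E was at 0.651 and 0.362 FPKM in SW480-shCYP1B1, against 0.0842 and 0.0850 FPKM in SW480-shNT, and COL1A1 was at 2.92 and 3.26 FPKM in SW480-shCYP1B1, against 1.30 and 1.88 FPKM in SW480-shNT. The leukocyte marker PTPRC, at most 0.0093 FPKM in the SW480 libraries, had too few reads to be tested. The part of these shifts in the results below was not tested.

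AHRR had 343 and 373 reads in SW480-shCYP1B1, against 797 and 951 in SW480-shNT, or 10.5 and 11.2 against 23.0 and 27.6 normalised CPM. Both hairpin libraries were below both controls. AHRR fell by 1.22 on the log2 scale (SE 0.19, adjusted p = 2.48e-04). The log2 fold change lay between -1.33 and -1.08 over the 14 alternatives, with an adjusted p of at most 0.00871. The overlapping gene PDCD6 was higher in SW480-shCYP1B1 (log2 fold change 0.30, SE 0.07, adjusted p = 0.00473), the opposite direction to AHRR.

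AHR was at 37.4 and 40.1 CPM in SW480-shCYP1B1, against 47.2 and 49.0 CPM in SW480-shNT. It fell by 0.31 on the log2 scale (SE 0.11, adjusted p = 0.0343), and the groups did not overlap. TIPARP was at 117 and 124 CPM in SW480-shCYP1B1, against 140.5 and 139 CPM in SW480-shNT, again with no overlap. It fell by 0.22 on the log2 scale (SE 0.07, adjusted p = 0.0280). Neither call held throughout: DESeq2 gave adjusted p = 0.0564 for AHR and 0.0534 for TIPARP, and without any 1 of the 4 SW480 libraries the adjusted p was 0.0814 to 0.190 for AHR and 0.0733 to 0.217 for TIPARP. ARNT moved the other way, at 59.4 and 60.7 CPM in SW480-shCYP1B1, against 49.6 and 47.1 CPM in SW480-shNT. The hairpin libraries were above the controls, and ARNT rose by 0.31 on the log2 scale (SE 0.09, adjusted p = 0.00969). The ARNT call was lost without SW480-shNT replicate 2 (adjusted p = 0.0906) or SW480-shCYP1B1 replicate 2 (adjusted p = 0.0675).

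CYP1A1 had 238 and 238 reads in SW480-shCYP1B1, against 284 and 258 in SW480-shNT. In normalised CPM the hairpin libraries were just below the controls, at 7.27 and 7.16 against 8.19 and 7.48. The log2 difference was -0.12 (SE 0.23, adjusted p = 0.690), with a 95% interval from -0.62 to 0.38. ALDH3A1 had 154 and 192 reads in SW480-shCYP1B1, against 288 and 306 in SW480-shNT. The groups did not overlap, but the log2 difference of -0.71 (SE 0.39, 95% interval -1.57 to 0.14) did not pass in the fit over all libraries (adjusted p = 0.149). It passed in the fit to the SW480 libraries alone (adjusted p = 5.73e-04), without RKO-CYP1B1 replicate 1 (adjusted p = 0.0118) and without RKO-CYP1B1 replicate 2 (adjusted p = 0.0122). In RKO-CYP1B1 its 2 libraries had 0 and 8 reads, and that pair enters the shared estimate of the spread.

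IL1R2 was the member that rose most in SW480. It had 78 and 102 reads in SW480-shCYP1B1, against 29 and 17 in SW480-shNT, or 2.38 and 3.07 against 0.836 and 0.493 normalised CPM. Both hairpin libraries were above both controls. IL1R2 rose by 2.03 on the log2 scale (SE 0.56, adjusted p = 0.0116). The call was lost without SW480-shNT replicate 2 (log2 fold change 1.70, adjusted p = 0.0919) or SW480-shCYP1B1 replicate 2 (1.85, adjusted p = 0.110).

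**Figure D2:**
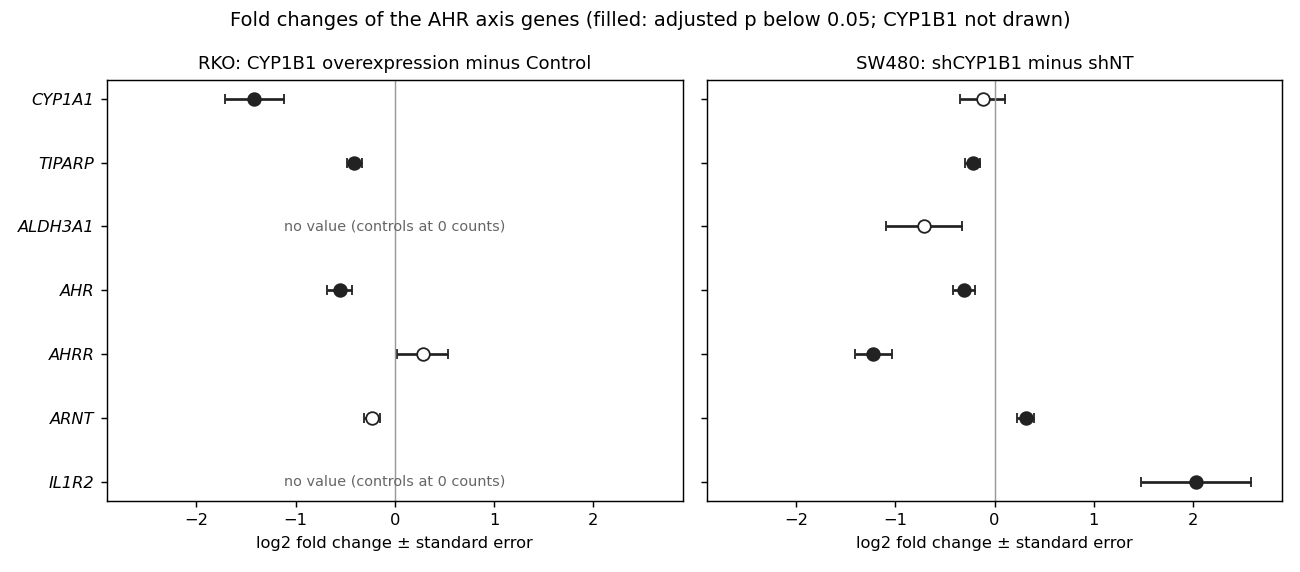
Log2 fold change (± SE) of the genes other than CYP1B1 in RKO (RKO-CYP1B1 minus RKO-Control) and SW480 (SW480-shCYP1B1 minus SW480-shNT), from edgeR. Filled points passed an adjusted p of 0.05. AHR and TIPARP lie left of 0 in both panels, CYP1A1 is at -1.41 in RKO and -0.12 in SW480, and AHRR is at 0.28 in RKO and -1.22 in SW480.

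The 2 lines do not share control libraries, so their effects can be set against each other. The difference compared is the RKO effect (RKO-CYP1B1 minus RKO-Control) minus the SW480 effect taken in the same sense of more CYP1B1 (SW480-shNT minus SW480-shCYP1B1). CYP1B1 itself changed by far more in RKO than in SW480, so a difference in size alone would not show that a gene relates to CYP1B1 differently in the lines. Leaving out CYP1B1, whose own difference of 6.98 (SE 0.58) the manipulations set, 4 of the other 5 genes differed, all downwards. Across all genes 42.6% differed, 21% upwards and 21.6% downwards. For AHR the RKO effect minus the SW480 effect was -0.87 (SE 0.17, adjusted p = 0.00154) on the log2 scale. AHR was lower in the group with more CYP1B1 in RKO and in the group with less in SW480. TIPARP had the same pattern, with a difference of -0.63 (SE 0.10, adjusted p = 6.47e-04). CYP1A1 differed by -1.53 (SE 0.38, adjusted p = 0.00669), and only its RKO change passed on its own. For AHRR the difference was -0.94 (SE 0.32, adjusted p = 0.0327). The AHRR difference was lost without RKO-Control replicate 1 (-0.65, adjusted p = 0.182), without SW480-shNT replicate 1 (adjusted p = 0.0523) or 2 (0.138), and without SW480-shCYP1B1 replicate 1 (0.0974) or 2 (0.0711). ARNT was lower with more CYP1B1 in both lines, by values that did not differ beyond their error (0.08, SE 0.12, adjusted p = 0.620), though only the SW480 change passed on its own.

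**Figure D3:**
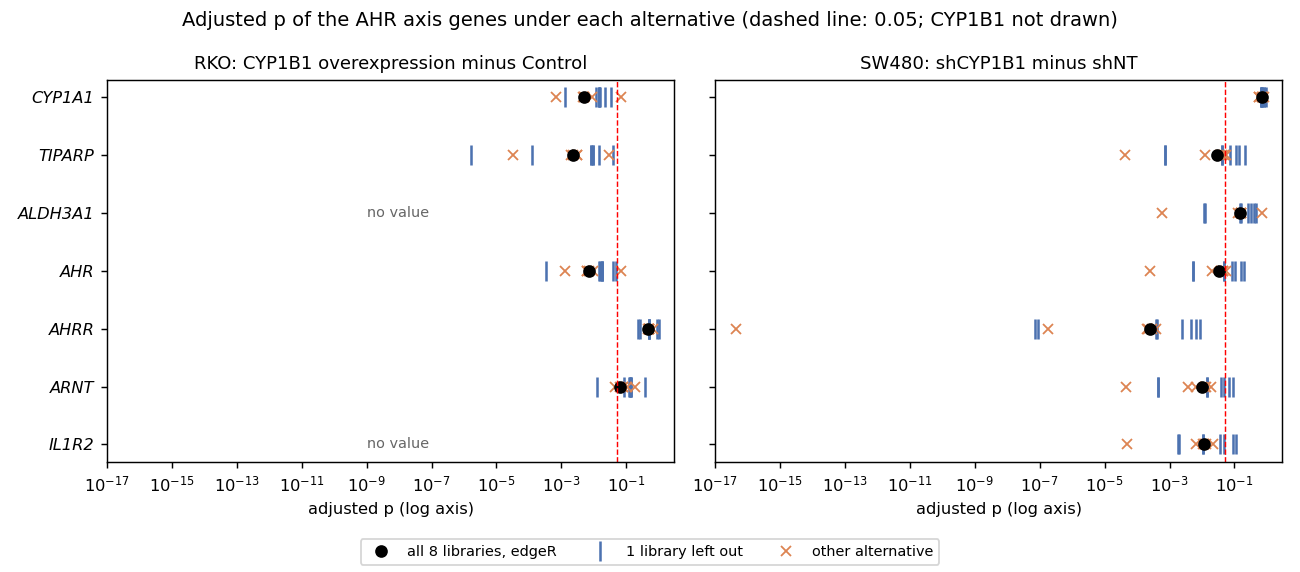
Adjusted p (log axis) of each gene other than CYP1B1 under the analysis as reported (black), each left-out library (bars) and each other alternative (crosses). The dashed line marks 0.05. In SW480, AHRR stays left of the line throughout, while AHR and TIPARP have values on both sides.

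The control groups of the 2 lines differed for most of these genes, and line, vector and library handling cannot be told apart in this contrast. SW480-shNT was set against RKO-Control: 7 of the 8 genes passed, 6 upwards and 1 downwards, where 76.8% of all genes did, 41.2% upwards and 35.6% downwards. AHR was at 48.1 ± 1.24 CPM in SW480-shNT and 11.5 ± 0.374 CPM in RKO-Control (SD, n = 2 each), a log2 difference of 2.06 (SE 0.12, adjusted p = 1.59e-08). AHRR averaged 25.3 ± 3.23 CPM in SW480-shNT and 1.44 ± 0.385 CPM in RKO-Control (log2 difference 4.13, SE 0.23, adjusted p = 1.08e-08). CYP1A1 averaged 7.83 ± 0.505 CPM in SW480-shNT and 1.84 ± 0.212 CPM in RKO-Control, a log2 difference of 2.09 (SE 0.25, adjusted p = 1.14e-05). ARNT was the one gene lower in SW480-shNT, at 48.3 ± 1.80 CPM, against 71.6 ± 5.38 CPM in RKO-Control (log2 difference -0.57, SE 0.08, adjusted p = 7.48e-05). TIPARP did not pass, at 140.0 ± 0.738 CPM in SW480-shNT and 127 ± 5.95 CPM in RKO-Control (0.14, SE 0.07, adjusted p = 0.0970), though it passed in 5 of 14 alternatives, among them those without RKO-CYP1B1 replicate 1 (adjusted p = 0.0179) or 2 (0.0180). CYP1B1 was higher in SW480-shNT by a log2 difference of 1.39 (SE 0.26, adjusted p = 4.66e-04). Against a floor of 3 counts per RKO-Control library, 0.0906 CPM, ALDH3A1 was at least 94.8-fold higher and IL1R2 at least 7.34-fold higher in SW480-shNT.

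Per length, TIPARP, ARNT and AHR led in that order in both control groups, while the order of AHRR and CYP1A1 differed between these groups. In SW480-shNT, TIPARP was highest at 32.0 and 31.9 FPKM, followed by ARNT at 10.3 and 9.78 FPKM, AHR at 7.51 and 7.83 FPKM and AHRR at 3.99 and 4.81 FPKM. CYP1A1 and ALDH3A1 came next there, with 3.12 and 2.87 FPKM and 2.77 and 2.98 FPKM. In RKO-Control, TIPARP was at 28.6 and 31.1 FPKM and ARNT at 16.0 and 14.6 FPKM, while AHR reached 1.92 and 1.87 FPKM. CYP1A1, AHRR and CYP1B1 were all below 1 FPKM in RKO-Control, with means of 0.727, 0.258 and 0.136 FPKM. In SW480-shCYP1B1, CYP1A1 averaged 2.68 FPKM and AHRR 1.83 FPKM, the same order as in RKO-Control. Only in RKO-CYP1B1 was CYP1B1 the highest of the 8.

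Ratios between the genes are taken from FPKM, library by library. The ratio of AHR to its repressor AHRR was 4.20 ± 1.18 in RKO-CYP1B1 and 7.55 ± 1.78 in RKO-Control (SD, n = 2 each). In SW480 it was 3.27 ± 0.00511 in SW480-shCYP1B1 and 1.75 ± 0.179 in SW480-shNT. ARNT exceeded AHR in every group, by 10.3 ± 1.82 times in RKO-CYP1B1, 8.08 ± 0.346 times in RKO-Control, 2.02 ± 0.0687 times in SW480-shCYP1B1 and 1.31 ± 0.0826 times in SW480-shNT. The ratio of CYP1B1 to CYP1A1 was 350.4 ± 42.0 in RKO-CYP1B1 and 0.189 ± 0.0247 in RKO-Control, and it was 0.0231 ± 0.00296 in SW480-shCYP1B1 and 0.117 ± 0.0418 in SW480-shNT. These ratios are descriptions, and no test was run on them.

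**Figure D4:**
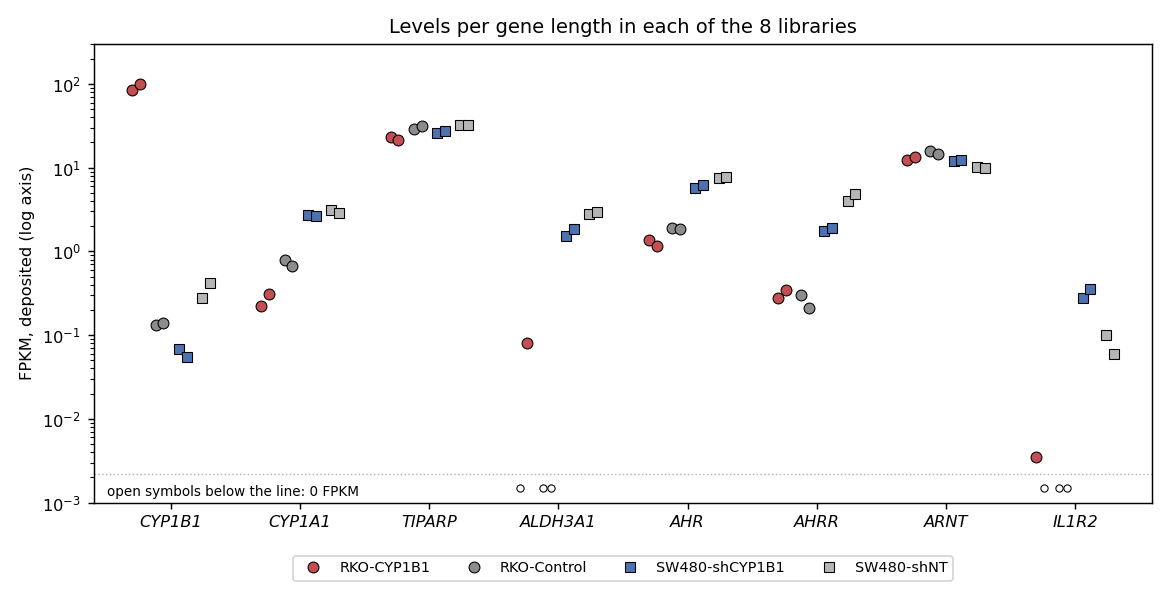
Deposited FPKM (log axis) of the 8 genes in each library, with the groups side by side. Open symbols below the dotted line are libraries listed at 0. TIPARP and ARNT are near 10 FPKM or above in all libraries, CYP1B1 is at 85.0 and 100.7 FPKM in RKO-CYP1B1 and at most 0.421 FPKM elsewhere, and ALDH3A1 is above 1 FPKM in the SW480 libraries only.

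The genes that work with the axis are described by list, as counts and medians. Over all genes tested, 27.6% were called in RKO and 50.6% in SW480 (13.8% and 25.3% in each direction), and the median log2 fold change was 0 in RKO and -0.0037 in SW480. PTGES3 and both cytosolic HSP90 genes, the chaperones that hold AHR, rose in both lines. Of 10 genes of the AHR complex and its partners, 3 rose and 1 fell in RKO (median 0.04), while 6 rose and 3 fell in SW480 (median 0.39). PTGES3, the p23 co-chaperone, averaged 440.4 ± 39.8 CPM in RKO-CYP1B1 and 284 ± 10.0 CPM in RKO-Control, and 708 ± 10.4 CPM in SW480-shCYP1B1 and 490.4 ± 7.33 CPM in SW480-shNT. Its log2 fold change was 0.63 (SE 0.07, adjusted p = 2.01e-04) in RKO and 0.53 (SE 0.07, adjusted p = 1.08e-04) in SW480. HSP90AA1 rose by 0.74 (SE 0.09) in RKO and 0.61 (SE 0.09) in SW480, and HSP90AB1 by 0.51 (SE 0.08) and 0.48 (SE 0.08). ARNT2, the tissue-restricted relative of ARNT, fell in SW480, at 5.74 and 5.68 CPM in SW480-shCYP1B1, against 19.9 and 19.5 CPM in SW480-shNT (log2 fold change -1.78, SE 0.14, adjusted p = 1.84e-06).

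Known AHR targets were called in both directions. Of 18 listed, 13 were tested. In RKO, 2 rose and 5 fell (median -0.41). The RKO median was -0.31 with ALDH3A1, absent from RKO-Control, set at its bound and EREG, absent from RKO-CYP1B1 and near 0 in RKO-Control, left out. In SW480, 3 rose and 4 fell (median -0.12). Among all genes, 27.6% were called in RKO and 50.6% in SW480. CYP1B1 is counted among those that rose in RKO and fell in SW480, and its own changes reflect the manipulations. SLC7A5, a large neutral amino acid transporter that also carries tryptophan and kynurenine, fell in both lines. It averaged 678 ± 53.9 CPM in RKO-CYP1B1 and 1050 ± 19.99 CPM in RKO-Control (log2 fold change -0.63, SE 0.07, adjusted p = 1.21e-04), and 737 ± 10.5 CPM in SW480-shCYP1B1 and 1332 ± 12.96 CPM in SW480-shNT (-0.85, SE 0.07, adjusted p = 2.16e-06). In RKO, NFE2L2, the factor behind the antioxidant response, fell by 0.60 (SE 0.10), while its own target NQO1 rose by 0.27 (SE 0.07). The Notch target HES1 fell by 0.72 (SE 0.22) in RKO, with 11.2 and 5.92 CPM in RKO-CYP1B1, against 13.3 and 14.96 CPM in RKO-Control, and its call was lost in 8 of 14 alternatives (adjusted p 0.0546 to 0.198). The HES1 fold change was -0.33 on the log2 scale without RKO-CYP1B1 replicate 2 (adjusted p = 0.0807) and -1.25 without RKO-CYP1B1 replicate 1. In SW480, the P450 gene CYP2S1 rose by 1.04 (SE 0.09), the secreted glycoprotein gene STC2 by 0.61 (SE 0.07) and the drug exporter gene ABCG2 by 1.29 (SE 0.34). The ABCG2 call was lost without SW480-shNT replicate 1 (0.87, adjusted p = 0.0702).

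Of 10 coregulators of AHR, 2 rose and 6 fell in RKO (median -0.37), where 27.6% of all genes were called. In SW480, 1 rose and 5 fell (median -0.24), a share near the 50.6% called among all genes. Without RKO-Control replicate 1 or replicate 2, 5 of them were called in RKO, 2 higher and 3 lower. The histone acetyltransferase EP300 fell by 0.75 (SE 0.14) in RKO and 0.73 (SE 0.14) in SW480, and the nuclear receptor coactivator gene NCOA1 fell by 0.52 (SE 0.09) and 0.53 (SE 0.09). EP300 was at 34.4 and 51.9 CPM in RKO-CYP1B1, against 73.0 and 71.8 CPM in RKO-Control, and its RKO log2 fold change ranged from -1.07 to -0.48 over the alternatives, the smallest without RKO-CYP1B1 replicate 1. The acetyltransferase CREBBP was at 47.2 and 47.9 CPM in SW480-shCYP1B1, against 123 and 122 CPM in SW480-shNT (log2 fold change -1.37, SE 0.16, adjusted p = 3.40e-05). CREBBP fell in RKO as well, at 61.5 and 98.2 CPM in RKO-CYP1B1, against 130 and 130 CPM in RKO-Control (-0.70, SE 0.16, edgeR adjusted p = 0.00662). The corepressor NCOR1 fell in RKO, at 38.9 and 44.4 CPM in RKO-CYP1B1, against 74.9 and 72.7 CPM in RKO-Control (-0.82, SE 0.08, adjusted p = 9.36e-05). The histone deacetylase HDAC5 rose in both, by 0.53 (SE 0.08) in RKO and 0.94 (SE 0.08) in SW480.

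Of 11 genes that supply tryptophan-derived ligands, 7 were tested. In RKO none rose and 2 fell (median -0.08), where 27.6% of all genes were called. In SW480 2 rose and 1 fell (median 0.21), where 50.6% were called. The 2 that fell in RKO, SLC7A5 and SLC3A2, encode the subunits of 1 transporter, and SLC3A2 fell by 0.85 (SE 0.14), with 286 and 189 CPM in RKO-CYP1B1, against 423 and 437 CPM in RKO-Control. In SW480 the kynurenine aminotransferases KYAT1 and KYAT3 rose by 1.29 (SE 0.12) and 0.73 (SE 0.16). IDO1, which makes kynurenine, had too few reads to be tested.

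Of 13 genes for the electron partners of P450 enzymes and for haem synthesis, 5 rose and none fell in RKO (median 0.17; 3 rose without RKO-Control replicate 2), whereas 2 rose and 5 fell in SW480 (median -0.11). Among all genes, 27.6% were called in RKO and 50.6% in SW480. In RKO the haem-binding P450 partner PGRMC1 rose by 0.40 (SE 0.07), the haem synthesis enzymes CPOX and UROD by 0.55 (SE 0.10) and 0.38 (SE 0.07), and CYB5R3, the cytochrome b5 reductase, by 0.33 (SE 0.07). In SW480 ALAS1, the first enzyme of haem synthesis, rose by 0.82 (SE 0.08), while FECH, the last, fell by 1.37 (SE 0.13), UROS by 1.07 (SE 0.13) and UROD by 0.46 (SE 0.07).

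Of 14 genes that handle oestrogens and quinones, the downstream chemistry of CYP1B1, 10 were tested. In RKO 2 rose and none fell, and in SW480 3 rose and none fell, where 27.6% and 50.6% of all genes were called. The median was 0.23 in RKO, or 0.27 without CYP19A1, which had no reads there. In SW480 it was 0.37, or 0.35 without GSTM1, which had no reads in SW480-shNT. The 2 that rose in RKO were GSTP1, a glutathione transferase (0.31, SE 0.07), and NQO1. In SW480 the sulfotransferase SULT1A1 rose by 1.08 (SE 0.15). NQO2, a quinone reductase, rose by 0.19 (SE 0.07, adjusted p = 0.0486). The NQO1 call was lost without RKO-Control replicate 1 (adjusted p = 0.107) or 2 (0.0619). The GSTP1 call, and that of CYB5R3 above, were lost without RKO-Control replicate 2 (adjusted p = 0.0550 and 0.0623), so that none of the 10 oestrogen and quinone genes was called in RKO by edgeR without that library. The NQO2 call was lost without either RKO-Control library or any 1 of the 4 SW480 libraries (adjusted p 0.0724 to 0.155).

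Other bHLH-PAS factors are relatives of AHR, of which several pair with ARNT or its paralogues. They were listed under 14 symbols, with BMAL1 and BMAL2 being second symbols of ARNTL and ARNTL2, and 8 were tested. In RKO none rose and 3 fell (median -0.26), and in SW480 4 rose and none fell (median 0.29). Among all genes 27.6% and 50.6% were called. In RKO, HIF1A, the hypoxia factor, was at 152 and 160 CPM in RKO-CYP1B1, against 239 and 233 CPM in RKO-Control (log2 fold change -0.60, SE 0.07, adjusted p = 1.49e-04). The circadian factors CLOCK and ARNTL fell by 0.78 (SE 0.09) and 0.38 (SE 0.10) in RKO, and the ARNTL call was lost without RKO-Control replicate 1 (-0.25, adjusted p = 0.168). In SW480, ARNTL rose by 1.22 (SE 0.10), SIM2 by 1.37 (SE 0.11), and EPAS1, the second hypoxia factor, by 0.51 (SE 0.06). NPAS1, a neuronal factor of the family, was at 34.2 and 32.0 CPM in SW480-shCYP1B1, against 11.7 and 11.6 CPM in SW480-shNT (adjusted p = 3.15e-05).

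In the interleukin-1 receptor system, to which IL1R2 belongs, 13 of 15 genes were tested. None of them was called in RKO by edgeR or DESeq2 (median -0.10), with 1 below an unadjusted p of 0.05. IL18RAP had no reads in RKO, and IL1R2, IL1R1 and IL1RL2 had at most 4 reads in any RKO library. The RKO median was -0.12 without IL1R2 and IL18RAP. Without RKO-CYP1B1 replicate 1, 2 rose. In SW480, 3 rose and 3 fell (median -0.13), where 50.6% of all genes were called. Besides IL1R2, the ubiquitin ligase gene TRAF6 rose by 0.66 (SE 0.10), while IRAK4, a kinase at the receptor, fell by 0.83 (SE 0.15), the adaptor MYD88 by 0.57 (SE 0.13) and IRAK1 by 0.24 (SE 0.07). The remaining rise was in IL18RAP, a subunit of the interleukin-18 receptor, at 1.01 and 0.691 CPM in SW480-shCYP1B1, against 0.0577 and 0.0290 CPM in SW480-shNT. The MYD88 call was lost without SW480-shCYP1B1 replicate 2 (adjusted p = 0.0507), and that of IL18RAP without SW480-shNT replicate 2 (0.0653) or SW480-shCYP1B1 replicate 1 (0.0558).

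The genes whose levels ran most like AHR were LDLRAD3, IARS1 and ZDBF2, with Pearson r of 0.997, 0.994 and 0.993 over the 8 libraries once the mean of each line was removed. For CYP1A1 they were FOXJ3, NCOR1 and CLOCK (r = 0.988, 0.983 and 0.981). For CYP1B1 they were DUSP15, LRP3 and NDUFA4 (r = 0.996, 0.995 and 0.994). None of them was called in SW480, where CYP1B1 fell. Their log2 fold changes there were -0.28, -0.11 and -0.15 (edgeR adjusted p = 0.553, 0.207 and 0.0729). DUSP15 was near 0 in RKO, at 0.0287 and 0.0299 CPM in RKO-CYP1B1 and 0 in both RKO-Control libraries. LRP3 was at 127 and 133 CPM in RKO-CYP1B1, against 83.4 and 82.3 CPM in RKO-Control. These are the highest of 13178 genes considered, the 8 points share 4 groups, and the values are descriptions.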

How the data were processed

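The authors deposited whole-number read counts and FPKM of 16829 genes in each of 8 libraries. These were made with a stranded mRNA kit, per the labels' protocols, and the submitters' processing notes name GRCh38.p13. How reads were aligned and counted, on which annotation and whether by strand, is not given in the sources used here. Reads of genes that overlap, on the same strand or on opposite strands, may therefore be mixed. The deposited FPKM equal the count per implied gene length and library total, and FPKM are used only for levels. Groups came from the sample titles.

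Genes passing filterByExpr (minimum count 10, minimum total 15) numbered 14157. Counts were scaled with TMM and fitted with 1 coefficient per group by edgeR 4.0.16 quasi-likelihood (R 4.3.3) over all libraries, on 4 residual degrees of freedom; p-values were Benjamini-Hochberg adjusted over all genes, with a threshold of 0.05. SE is the log2 fold change divided by the square root of F. Alternatives were DESeq2 1.42.0, other scalings, no filter, single-line fits, a replicate block and each library left out.

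The 8 genes and the lists were chosen with earlier results of these data known. Named genes are those 8, up to 4 called genes per list and line by smallest adjusted p, and the 3 most alike to CYP1B1, AHR and CYP1A1. Markers, IDO1, EREG, RMDN2, PDCD6 and IRAK1 were named after their values were seen. Some genes of the lists are counted but not reported here.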

Additional observations from a re-analysis of the deposited data

Results flagged for a closer look

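These results are listed because the effect of more CYP1B1 differed between the lines by a test of the difference itself. Each value is the log2 change in RKO (RKO-CYP1B1 minus RKO-Control) minus that in SW480 (SW480-shNT minus SW480-shCYP1B1). Among the axis genes these were AHR (-0.87, SE 0.17), AHRR (-0.94, SE 0.32), CYP1A1 (-1.53, SE 0.38), CYP1B1 (6.98, SE 0.58) and TIPARP (-0.63, SE 0.10).

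Among the genes of the lists, the value was below 0 for CREBBP (-2.06, SE 0.22), ARNT2 (-2.03, SE 0.18), FECH (-1.51, SE 0.17), SLC7A5 (-1.49, SE 0.09), EP300 (-1.47, SE 0.20), UROS (-1.30, SE 0.18), NCOA1 (-1.05, SE 0.12), IRAK4 (-0.98, SE 0.20), SLC3A2 (-0.98, SE 0.20), CLOCK (-0.91, SE 0.12), NCOR1 (-0.89, SE 0.11), HIF1A (-0.58, SE 0.09) and NFE2L2 (-0.55, SE 0.14).

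It was above 0 for GSTP1 (0.25, SE 0.09), CYB5R3 (0.27, SE 0.10), NQO2 (0.32, SE 0.10), PGRMC1 (0.35, SE 0.09), EPAS1 (0.37, SE 0.09), TRAF6 (0.53, SE 0.15), CPOX (0.71, SE 0.14), ARNTL (0.84, SE 0.14), ALAS1 (0.89, SE 0.11), SULT1A1 (0.92, SE 0.23), HSP90AB1 (0.98, SE 0.11), NPAS1 (1.07, SE 0.27), PTGES3 (1.16, SE 0.10), SIM2 (1.34, SE 0.15), HSP90AA1 (1.35, SE 0.13), HDAC5 (1.47, SE 0.11), KYAT1 (1.59, SE 0.17) and CYP2S1 (2.22, SE 0.56). CYP2S1 had 8 and 4 reads in RKO-CYP1B1 and 2 and 3 in RKO-Control, so its value rests on few RKO reads. The smallest adjusted p was 1.77e-06, for SLC7A5, and the largest 0.0482, for GSTP1, by edgeR quasi-likelihood. Across all genes 42.6% passed this test. Relative to the control of each line, AHR, TIPARP, SLC7A5, EP300, NCOA1 and CREBBP were called lower in both lines. HDAC5, PTGES3, HSP90AA1 and HSP90AB1 were called higher in both. For all of these, the effects of more CYP1B1 have opposite signs in this contrast.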

How the results depend on the processing

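No result that was run under the alternatives changed direction. For the difference between lines, the only single genes run under them were axis genes. The flagged differences of the other list genes were therefore not checked in this way. The numbers of axis genes called in RKO, in SW480, in the difference between lines and between the control groups were 4, 6, 5 and 7. These and the axis counts below include CYP1B1, whose call reflects the manipulations except between the controls. Fits to only the libraries compared called 2 axis genes and 2294 of all genes in RKO (3907 with all libraries), 7 and 9071 in SW480 (7167) and 8 and 11416 between the controls (10876). DESeq2 called 4 axis genes in RKO and 4 in SW480. With 1 library left out, axis calls ranged from 4 to 5 in RKO, 2 to 7 in SW480, 4 to 5 in the difference and 7 to 8 between controls. Calls over all genes then ranged from 1784 to 5629 in RKO, 5076 to 8756 in SW480, 4576 to 7142 in the difference and 9747 to 11714 between controls. In SW480 both low counts of 2 came without replicate 2 of SW480-shNT or of SW480-shCYP1B1, and the low RKO counts without RKO-Control replicate 2 (1784) or 1 (2254). The RKO calls rose most without RKO-CYP1B1 replicate 1. Among the results for single genes, 56 calls were lost and 10 gained over all alternatives, while 1206 results on single genes and lists kept their call; 24 list counts moved by over 1.5 times. The cause was not tested.

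Same-numbered libraries did not deviate together over all genes (correlations of -0.0116 to 0.0162 over 14157 genes). A link limited to some of the genes could be missed by this check. The labels do not say what the numbers mark, and they are used here as names of libraries. A replicate block gave 4, 6, 5 and 7 axis genes, and 3810, 6960, 5868 and 10768 of all genes; of the named single genes, the block ended the call of NQO2 in SW480 (adjusted p = 0.0660).

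Depth limits CYP1B1 outside RKO-CYP1B1 and CYP1A1, AHRR, ALDH3A1 and IL1R2 in RKO, where libraries had at most 76 reads of each.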
